A study of Arabidopsis thaliana with 15 samples.

Results

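The genes described here are those of the Arabidopsis thaliana plastid genome, the small circular chromosome kept inside chloroplasts. A probe set was counted as a member when the array's annotation pairs it with 1 gene and that gene's locus is on the plastid genome. This gave 69 probe sets for 69 genes, 1 probe set a gene, out of 22746 probe sets tested and of 84 protein-coding plastid loci in the gene table. Another 8 probe sets match genes with a second copy on the plastid genome (rps12, rpl2, rpl23, ycf2, ndhB, rps7 and ycf1) and are not members. The members are 5 photosystem I genes, 15 photosystem II genes, 10 genes of the NDH complex, 6 of the cytochrome b6f complex, 6 of the ATP synthase, rbcL, 15 ribosomal protein genes, 4 RNA polymerase genes and 7 others.

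The study infiltrated mature leaves of 4-week-old plants with Psm bacteria carrying the effector AvrRpt2 at OD 0.01 in 10 mM MgSO4 and collected leaf RNA on 15 ATH1-type arrays. Of the 5 groups, 3 are wild-type Col-0 at 0, 6 and 10 h after infiltration and the other two are the rps2 mutant at 0 and 10 h, with 3 replicate arrays each. Plants grew on soil at 22 °C with 12 h of light and 12 h of dark. RPS2 is the resistance protein through which Arabidopsis detects AvrRpt2, and the labels do not name the mutant allele. All leaves received the bacteria, and no mock-infiltrated leaves are among these arrays, so time after infiltration, the infiltration itself and time of day cannot be told apart. The RPS2 gene has no named probe set among those used here, so the mutant label was not checked on its own gene. The plastid also has a gene called rps2, for a protein of its small ribosomal subunit, which has nothing to do with the mutant; it is always called the plastid gene rps2 here.

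As background, chloroplasts descend from cyanobacteria and keep genes mainly for photosynthesis and for the machinery that expresses them. Many of these genes lie in operons and are transcribed together into long RNAs, which are then cut, spliced and edited. A multi-subunit polymerase encoded by the plastid rpo genes transcribes most photosynthesis genes, and a nuclear-encoded phage-type polymerase transcribes others, including rpoB. Every photosynthetic complex also contains subunits whose genes are in the nucleus. In plastids, poly(A) tails are short-lived marks of RNA decay, and the RNA here was amplified with a kit that primes on poly(A), so a plastid value on these arrays can follow tail status as well as RNA amount. Which of the 2 a value follows was not tested. In whole leaves, fewer chloroplast-bearing cells and less plastid RNA per cell cannot be told apart either.

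Each value is a log2 difference from the median of that probe set over the 15 arrays, which is 0 for every probe set. Levels of different genes therefore cannot be compared, and whether a probe set was above background is not given. A change is a difference between group means from a linear model over all arrays (limma), on the log2 scale with its standard error (SE), and it passed the test at an adjusted p under 0.05 after Benjamini-Hochberg adjustment over all 22746 probe sets. "Rose" and "fell" are used only for changes that passed. Each change of every member is taken over 3 arrays against 3 unless stated.

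One array goes against its label. Over the 69 members, the array labelled rps2 10 h replicate 3 differed from the 3 rps2 0 h arrays with a standard deviation of 0.131 to 0.177, and from the other rps2 10 h arrays with one of 0.347 and 0.425. Those other arrays, replicates 1 and 2, differed from each other with a standard deviation of 0.254. Its median over the members was 0.39, inside the range of 0.21 to 0.40 of the rps2 0 h arrays, whereas replicates 1 and 2 were at -0.03 and -0.23. Counts over all 69 members on the deposited scale are given with this array and without it. Single genes in Col-0 are mostly given with all arrays, and the mutant 10 h change mostly without this one. Because all groups share 1 estimate of spread, leaving it out also changes the p-values within Col-0. A second measured difference between arrays concerns scale: the 24 poly-A control probe sets, for RNAs spiked in before amplification, averaged 0.90 to 1.13 in Col-0 at 10 h and from -0.49 to 0.12 elsewhere. Centring the arrays on these controls moved the median of all probe sets in Col-0 10 h against 0 h from 0.00 to -1.08, and that scale is given where it matters.

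**Figure D1:**
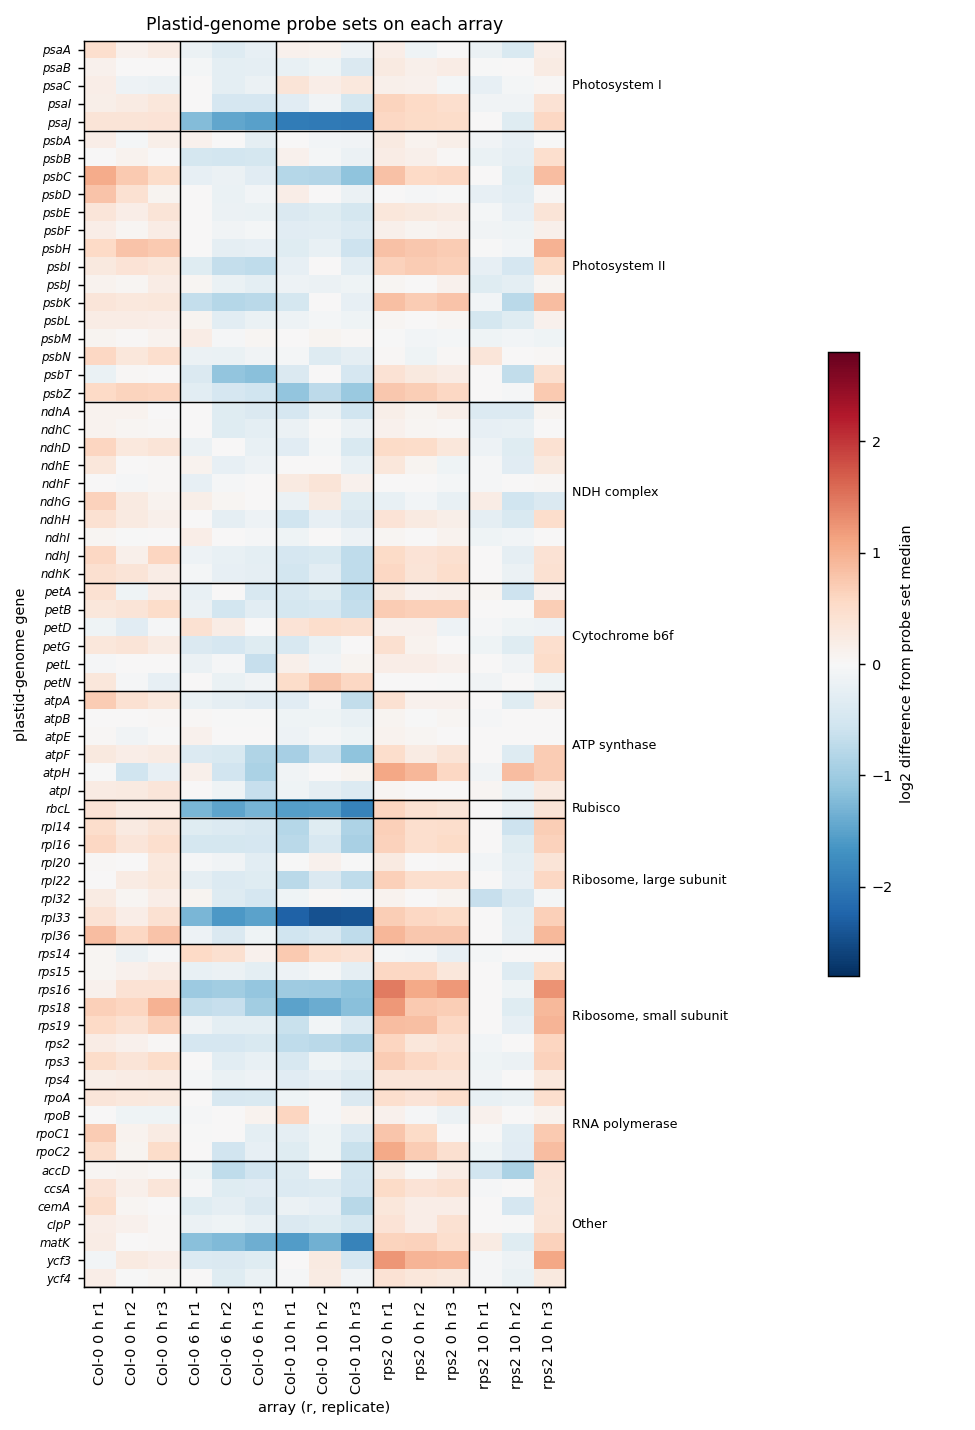
Values of the 69 plastid-genome probe sets (rows, grouped by functional class) on the 15 arrays (columns, r for replicate), as log2 differences from the probe set's own median, blue below and red above. The rows for psaJ, rbcL, rpl33 and matK are the darkest blue at 6 and 10 h in Col-0, and the column for rps2 10 h replicate 3 looks like the rps2 0 h columns.

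In Col-0, most measured plastid genes were lower 6 h after infiltration than at 0 h. Of the 69 members, 42 fell and 2 rose, so 63.8% passed, where 54.1% of all probe sets did. The split by direction differed more: 60.9% of members fell against 28.6% of all probe sets. The median change was -0.52 over members and -0.04 over all probe sets. Without rps2 10 h replicate 3, 52 fell and 2 rose, against 59.7% of all probe sets passing. After quantile normalisation was repeated on the deposited values, which gives every array the same distribution, 24 fell and 2 rose at 6 h, against 46.3% of all probe sets. Those values are already centred on each probe set's median, so this step equalises the spread of differences between arrays, not that of intensities. After it, the share of members passing in either direction was under that of all probe sets, both at 6 h and at 10 h. At 10 h, 41 fell and 5 rose; that is 66.7% of members, against 59.7% of all probe sets, and the share that fell was 59.4% against 30.5%. The median change was again -0.52, against 0.00 over all. Without the doubtful array 46 fell and 5 rose at 10 h, against 64.2% of all probe sets. After quantile normalisation 25 fell and 3 rose at 10 h, against 46.8%; rpl33, psaJ and rbcL then stood at -1.96, -1.63 and -1.28, matK at -1.05 and rps16 at -0.89, all past the threshold, while atpF (-0.73) and the rises of psaC and ndhF did not pass. On the scale centred on poly-A controls, 34 members fell at 6 h and none rose, against 45.0% of all probe sets passing and 5122 of 22746 falling. On that scale all 69 fell at 10 h, with a median of -1.59, where 89.7% of all probe sets passed and 18006 of 22746 fell. The 6 h and 10 h comparisons share the 0 h arrays, so their likeness is in part built in.

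By function, the ribosomal genes had the lowest median change of the larger classes at 10 h in Col-0. The median over the 15 ribosomal genes was -0.90, with 11 fallen and 1 risen. Over the 20 photosystem genes it was -0.46, with 11 fallen and 1 risen, and over the 10 NDH genes it was -0.45, with 5 fallen and 1 risen. The 12 genes of the cytochrome b6f complex and ATP synthase had a median of -0.35, with 7 fallen and 2 risen. The 4 polymerase genes had a median of -0.54, with 2 fallen. Members of each class ranged widely, from -2.71 to -0.08 in the large ribosomal subunit alone. Of all probe sets 30.5% fell in this comparison. Without rps2 10 h replicate 3, 12 ribosomal, 14 photosystem, 5 NDH and 3 polymerase genes fell, and 7 of the cytochrome b6f complex and ATP synthase. In that fit 7522 of all 22746 probe sets fell. No test between classes was made, and these medians describe the members measured.

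**Figure D2:**
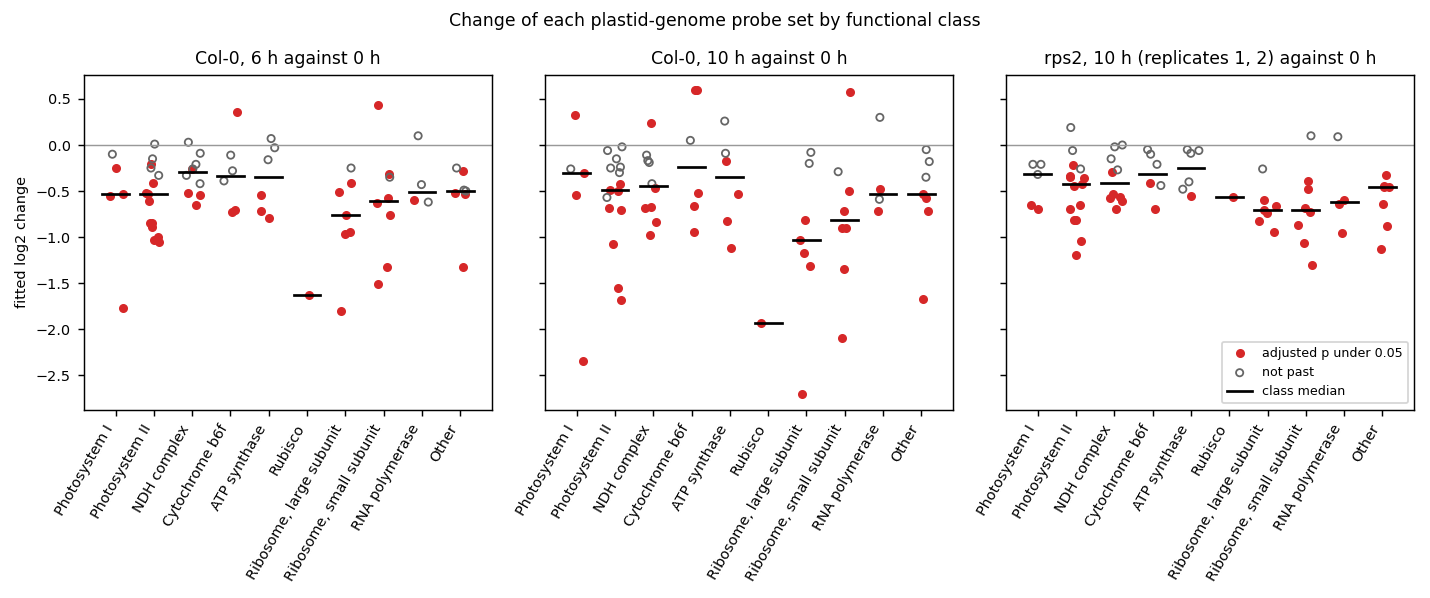
Fitted log2 change of each plastid-genome probe set (points) by functional class, in Col-0 at 6 h and 10 h against 0 h and in the rps2 mutant at 10 h without replicate 3 against 0 h; filled points have an adjusted p under 0.05 and lines are class medians. Nearly all points lie below 0 in the 3 panels; the 5 filled points above 0 at 10 h in Col-0 lie below 0 when arrays are centred on poly-A controls, and the points under -1.5 are in the Col-0 panels.

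Photosystem I takes electrons from plastocyanin and passes them to ferredoxin. Its reaction centre proteins are PsaA and PsaB, PsaC carries the terminal iron-sulfur clusters, and PsaI and PsaJ are small membrane subunits. The small-subunit gene psaJ had one of the lowest changes of all members. Its Col-0 values were 0.35, 0.36 and 0.38 at 0 h, -1.22, -1.46 and -1.53 at 6 h and -1.95, -1.98 and -2.00 at 10 h. In the mutant they were 0.57, 0.53 and 0.51 at 0 h and 0.00, -0.33 and 0.57 at 10 h. The Col-0 time points did not overlap, each lower than the one before. The fall was -1.77 ± 0.17 (SE; adjusted p = 1.25e-06) at 6 h and -2.35 ± 0.17 (SE; adjusted p = 5.74e-08) at 10 h, about 5.08-fold at 10 h. The reaction centre genes moved less. psaA changed by -0.53 ± 0.15 (SE; adjusted p = 0.00817) at 6 h and by -0.26 ± 0.15 (SE; adjusted p = 0.158) at 10 h, the latter not past the threshold, and psaB fell by 0.30 at 10 h (SE 0.09; adjusted p = 0.0153). psaI fell by 0.54 at 10 h (SE 0.16; adjusted p = 0.00918).

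The iron-sulfur gene psaC went the other way between 6 and 10 h. Col-0 arrays read 0.18, -0.14 and -0.17 at 0 h, 0.00, -0.28 and -0.16 at 6 h and 0.36, 0.19 and 0.30 at 10 h. Mutant arrays read 0.15, 0.13 and -0.06 and then -0.23, -0.05 and 0.04. The 3 Col-0 10 h arrays were the highest of the 15. The rise from 0 to 10 h was 0.33 ± 0.11 (SE; adjusted p = 0.024), but on the poly-A scale psaC fell by 0.75.

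Photosystem II splits water. PsbA and PsbD form its reaction centre, PsbB and PsbC are its inner antenna proteins, PsbE and PsbF are the subunits of cytochrome b559, and the rest measured here are small subunits, apart from PsbN, which is needed for assembly. The inner antenna gene psbC had the lowest change of this class at 10 h. Its values in Col-0 were 1.04, 0.74 and 0.52 at 0 h, -0.22, -0.17 and -0.31 at 6 h and -0.79, -0.83 and -1.13 at 10 h. Those in the mutant were 0.81, 0.55 and 0.58 at 0 h and 0.00, -0.33 and 0.87 at 10 h. Again the 3 Col-0 groups did not overlap, and the fall was -1.68 ± 0.24 (SE; adjusted p = 4.02e-05) at 10 h. psbZ, the small-subunit gene next in the same operon, fell by 1.03 at 6 h and by 1.55 at 10 h (SE 0.17 for both). psbD begins that operon and overlaps psbC, yet its values were 0.80, 0.43 and 0.07 at 0 h, 0.00, -0.19 and -0.07 at 6 h and 0.18, 0.01 and -0.17 at 10 h in Col-0. Mutant values of psbD were 0.02, -0.04 and -0.01 at 0 h and -0.23, -0.30 and 0.03 at 10 h. Its spread among the Col-0 0 h arrays was wide, and it fell by 0.42 at 10 h (SE 0.16; adjusted p = 0.0327).

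psbA encodes the reaction centre protein that light damages most and that is replaced fastest. It changed by -0.15 ± 0.10 (SE; adjusted p = 0.268) at 6 h and -0.15 ± 0.10 (SE; adjusted p = 0.246) at 10 h, neither past the threshold. psbB, for the other inner antenna protein, fell by 0.53 at 6 h (SE 0.15; adjusted p = 0.00861). Its difference from 0 h was -0.06 ± 0.15 (SE; adjusted p = 0.767) at 10 h, which did not pass. The rise of psbB from 6 to 10 h was 0.47 ± 0.15 (SE; adjusted p = 0.0307), which becomes a fall on the poly-A scale. The small-subunit genes psbK and psbI, neighbours, had a like course. psbK was at 0.33, 0.30 and 0.32 at 0 h, -0.66, -0.79 and -0.76 at 6 h and -0.50, 0.00 and -0.24 at 10 h in Col-0, and psbI was at 0.28, 0.39 and 0.31, -0.33, -0.67 and -0.71 and -0.24, 0.00 and -0.29. Mutant psbK values were 0.84, 0.70 and 0.79 at 0 h and -0.08, -0.75 and 0.87 at 10 h, and those of psbI were 0.65, 0.71 and 0.67 and -0.24, -0.48 and 0.53. The 6 h arrays of psbK were all below the 10 h arrays of Col-0. psbK fell by 1.05 at 6 h (SE 0.29; adjusted p = 0.00698) and its 10 h change, -0.57 ± 0.29, did not pass (adjusted p = 0.11), though it passed without rps2 10 h replicate 3 (adjusted p = 0.00248).

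psbT shared the 6 h low. Its Col-0 values were -0.19, 0.04 and 0.01, -0.40, -1.11 and -1.16 and -0.41, 0.01 and -0.46 at 0, 6 and 10 h, and its mutant values 0.41, 0.28 and 0.21 at 0 h and 0.00, -0.69 and 0.45 at 10 h. The fall of psbT at 6 h was -0.85 ± 0.26 (SE; adjusted p = 0.0141). At 10 h the groups overlapped, with a change of -0.24 ± 0.26 (adjusted p = 0.462). psbM had the highest change of the class and hardly varied: Col-0 arrays lay at 0.07, 0.03 and 0.10, 0.20, -0.04 and 0.05 and 0.00, 0.08 and 0.04 at the 3 times and mutant arrays at -0.02, -0.07 and -0.06 and -0.13, -0.08 and -0.11. psbE, psbF and psbH, the last a phosphoprotein gene, fell at 10 h by 0.71, 0.49 and 1.07; psbJ and psbL, at -0.25 and -0.30, did not pass with all arrays and passed without the doubtful one (adjusted p = 0.0155 and 0.00562).

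psbN differed between the genotypes. In Col-0 it was at 0.59, 0.32 and 0.46 at 0 h, -0.17, -0.18 and -0.10 at 6 h and -0.06, -0.36 and -0.26 at 10 h. In the mutant it was at 0.03, -0.12 and 0.03 at 0 h and 0.34, 0.00 and 0.03 at 10 h. The Col-0 0 h arrays were above all others apart from the first mutant 10 h array, which reached their range. The fall in Col-0 at 10 h was -0.68 ± 0.11 (SE; adjusted p = 1.00e-04), and the mutant change was 0.15 ± 0.11 (adjusted p = 0.347).

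The NDH complex carries electrons from ferredoxin back to plastoquinone around photosystem I. Of its 10 genes, 4 fell at 6 h and 5 at 10 h in Col-0, where 28.6% and 30.5% of all probe sets fell. Without rps2 10 h replicate 3, 6 fell at 6 h and 5 at 10 h, where 7285 and 7522 of all 22746 probe sets fell. The lowest change was in ndhJ, for a subunit of the arm on the stromal side. Its Col-0 arrays were at 0.57, 0.15 and 0.61 at 0 h, -0.15, -0.20 and -0.27 at 6 h and -0.48, -0.42 and -0.72 at 10 h. Its mutant arrays were at 0.53, 0.39 and 0.44 at 0 h and 0.00, -0.25 and 0.40 at 10 h. The 3 Col-0 groups did not overlap, and the fall was -0.98 ± 0.16 (SE; adjusted p = 1.03e-04) at 10 h. ndhK and ndhC share its operon; ndhK fell by 0.84 at 10 h and ndhC changed by -0.17 ± 0.09 (adjusted p = 0.135). ndhF, for a membrane subunit, had values of 0.00, -0.03 and 0.04 at 0 h, -0.22, -0.03 and 0.00 at 6 h and 0.26, 0.36 and 0.11 at 10 h in Col-0. Its mutant values were 0.00, 0.00 and -0.05 and -0.04, 0.00 and 0.04. Only the Col-0 10 h group lay apart from the rest, with a rise of 0.24 ± 0.08 (SE; adjusted p = 0.0169), and on the poly-A scale ndhF fell by 0.84.

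Of the operon that holds ndhH, ndhA, ndhI, ndhG, ndhE, psaC and ndhD, 3 of the 7 genes fell at 10 h in Col-0 and psaC rose. Of all probe sets 30.5% fell. ndhD, ndhH and ndhA fell by 0.68, 0.67 and 0.47. ndhI, ndhE and ndhG stood at -0.11 ± 0.07, -0.19 ± 0.16 and -0.42 ± 0.20 and did not pass. ndhG varied widely, with Col-0 arrays at 0.65, 0.25 and 0.10 at 0 h, 0.16, 0.06 and 0.00 at 6 h and -0.16, 0.26 and -0.35 at 10 h. Its mutant arrays were at -0.21, -0.08 and -0.20 and 0.20, -0.56 and -0.41. The Col-0 groups overlapped, whereas the 0 h groups of the 2 genotypes did not.

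The cytochrome b6f complex links the photosystems. PetA and PetB bind hemes, PetD is a core subunit beside PetB, and PetG, PetL and PetN are small subunits. petB and petD are adjacent in the operon that begins with psbB, and they moved in opposite directions. petB lay at 0.32, 0.37 and 0.52 at 0 h, -0.16, -0.51 and -0.30 at 6 h and -0.50, -0.44 and -0.66 at 10 h in Col-0. Mutant petB was at 0.71, 0.66 and 0.66 at 0 h and 0.00, -0.02 and 0.68 at 10 h. petD lay at -0.11, -0.32 and -0.03, 0.42, 0.21 and 0.00 and 0.39, 0.50 and 0.44 in Col-0 at the 3 times. Mutant petD was at 0.11, 0.11 and -0.14 and -0.03, -0.11 and -0.14. The groups of petB at 0 h and at 10 h in Col-0 did not overlap, nor did those of petD. At 10 h petB fell by 0.94 (SE 0.16; adjusted p = 1.73e-04), and petD rose by 0.60 ± 0.11 (SE; adjusted p = 4.39e-04), although on the poly-A scale petD also fell, by 0.48. Both directions were already past the threshold at 6 h, at -0.73 ± 0.16 and 0.36 ± 0.11.

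petN rose late. Its Col-0 values were 0.31, -0.03 and -0.24 at 0 h, 0.00, -0.19 and -0.09 at 6 h and 0.51, 0.75 and 0.57 at 10 h. Mutant arrays of petN were at 0.01, 0.01 and -0.02 and -0.10, 0.00 and -0.12. The 10 h arrays of Col-0 were the 3 highest. The change was -0.11 ± 0.12 at 6 h (adjusted p = 0.481), 0.60 ± 0.12 (SE; adjusted p = 5.72e-04) at 10 h and 0.70 ± 0.12 (SE; adjusted p = 5.35e-04) from 6 to 10 h, while the poly-A scale put the 10 h change of petN at -0.48 and that from 6 to 10 h at -0.41. petA and petG fell at 10 h, by 0.66 and 0.52, and petL stood at 0.05 ± 0.16 (adjusted p = 0.833).

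The ATP synthase uses the proton gradient to make ATP. AtpA, AtpB and AtpE are in its catalytic head, AtpF is part of the stalk, AtpH forms the rotating ring and AtpI is a channel subunit. atpF had the lowest change. Col-0 atpF was at 0.27, 0.19 and 0.24 at 0 h, -0.39, -0.43 and -0.84 at 6 h and -0.93, -0.60 and -1.13 at 10 h. Mutant atpF was at 0.49, 0.24 and 0.35 at 0 h and 0.00, -0.37 and 0.70 at 10 h. All Col-0 arrays after infiltration were below all those at 0 h, and the fall was -1.12 ± 0.23 (SE; adjusted p = 7.27e-04) at 10 h. atpA and atpI fell by 0.83 and 0.53 at 10 h. The separate operon of atpB and atpE hardly moved: atpB fell by 0.17 (SE 0.06; adjusted p = 0.0147) and atpE stood at -0.09 ± 0.06.

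atpH, between atpF and atpI, had scattered values. They were -0.02, -0.55 and -0.23 at 0 h, 0.14, -0.54 and -0.89 at 6 h and -0.09, 0.00 and 0.07 at 10 h in Col-0. In the mutant they were 1.09, 0.93 and 0.58 at 0 h and -0.10, 0.86 and 0.71 at 10 h. Each Col-0 group overlapped the others and no Col-0 change of atpH passed (0.26 ± 0.28 at 10 h, adjusted p = 0.446).

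rbcL encodes the large subunit of Rubisco, the enzyme that fixes carbon dioxide, and it was among the lowest at both times. Its Col-0 values were 0.38, 0.24 and 0.23 at 0 h, -1.29, -1.47 and -1.30 at 6 h and -1.55, -1.52 and -1.87 at 10 h. Mutant values of rbcL were 0.60, 0.43 and 0.36 at 0 h and 0.00, -0.20 and 0.37 at 10 h. The fall in Col-0 was -1.63 ± 0.14 (SE; adjusted p = 4.63e-07) at 6 h and -1.93 ± 0.14 (SE; adjusted p = 5.84e-08) at 10 h, or 3.81-fold at 10 h. The difference between 10 h and 6 h, -0.29 ± 0.14, did not pass with all arrays (adjusted p = 0.132) and passed without rps2 10 h replicate 3 (adjusted p = 0.0312). The nuclear small-subunit genes are not among the named probe sets used here.

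Ribosomal protein genes held the member with the lowest change of all. rpl33 was at 0.40, 0.18 and 0.42 at 0 h, -1.29, -1.61 and -1.49 at 6 h and -2.27, -2.44 and -2.41 at 10 h in Col-0. In the mutant rpl33 was at 0.69, 0.57 and 0.54 at 0 h and 0.00, -0.28 and 0.66 at 10 h. Every 6 h array was below every 0 h array and above every 10 h array of Col-0. Its fall was -1.80 ± 0.18 (SE; adjusted p = 2.59e-06) at 6 h and -2.71 ± 0.18 (SE; adjusted p = 3.72e-08) at 10 h, or 6.53-fold at 10 h. rps18, for a small-subunit protein, is its neighbour. rps18 lay at 0.67, 0.61 and 0.97 at 0 h, -0.68, -0.65 and -0.97 at 6 h and -1.49, -1.39 and -1.17 at 10 h in Col-0, and at 1.22, 0.74 and 0.69 and 0.00, -0.35 and 0.91 in the mutant. Its groups in Col-0 did not overlap, and its fall at 10 h was -2.10 ± 0.26 (SE; adjusted p = 1.10e-05). psaJ, rpl33 and rps18 thus stand side by side on the plastid genome and were the 3 members with the lowest changes at 10 h, while petL and petG, just before psaJ, stood at 0.05 ± 0.16 and -0.52 ± 0.18, and rpl20, just after rps18 on the opposite strand, at -0.08 ± 0.15.

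rpl20 itself hardly varied, with Col-0 arrays at 0.03, 0.02 and 0.29 at 0 h, -0.03, -0.10 and -0.29 at 6 h and -0.01, 0.13 and -0.02 at 10 h. Its mutant arrays were at 0.25, 0.00 and 0.03 and -0.07, -0.27 and 0.36. rps16, for another small-subunit protein, was about as low at 6 h as at 10 h on the deposited scale. It was at 0.12, 0.40 and 0.40 at 0 h, -1.02, -0.97 and -1.08 at 6 h and -0.99, -1.02 and -1.13 at 10 h in Col-0, and at 1.46, 1.07 and 1.21 and 0.00, -0.11 and 1.25 in the mutant. Both times were past the threshold, at -1.33 ± 0.27 and -1.35 ± 0.27, and they differed from each other by -0.02 ± 0.27 (adjusted p = 0.962). That likeness depends on the scale: after quantile normalisation the difference was 0.35, not past the threshold. On the poly-A scale 68 of the 69 members fell between these times.

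In the large ribosomal operon, all 7 of its measured genes, rps19, rpl22, rps3, rpl16, rpl14, rpl36 and rpoA, fell at 6 h and at 10 h, by 0.48 in rpoA to 1.31 in rpl36 at 10 h. The share of all probe sets that fell was 28.6% at 6 h and 30.5% at 10 h. After quantile normalisation 5 of the 7 passed at 6 h and 4 at 10 h, where 46.3% and 46.8% of all probe sets passed. rps14 was the ribosomal gene that rose. Its Col-0 values were 0.06, -0.17 and -0.03 at 0 h, 0.56, 0.45 and 0.13 at 6 h and 0.74, 0.47 and 0.40 at 10 h, and its mutant values -0.05, -0.08 and -0.24 and -0.05, 0.00 and 0.00. The 10 h group of Col-0 lay above the 0 h group, with a rise of 0.58 ± 0.12 (SE; adjusted p = 7.29e-04) that turns into a fall of 0.49 on the poly-A scale. psaB and psaA, which are transcribed with rps14, stood at -0.30 ± 0.09 and -0.26 ± 0.15. rps4 and the plastid gene rps2 fell at 10 h by 0.50 and 0.90. rps15 stood at -0.29 ± 0.17 and rpl32 at -0.20 ± 0.15, neither past the threshold.

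The polymerase genes rpoB, rpoC1 and rpoC2 share 1 operon. rpoC2, for a core subunit, was at 0.50, 0.08 and 0.52 at 0 h, 0.00, -0.53 and -0.24 at 6 h and -0.33, -0.11 and -0.63 at 10 h in Col-0. Mutant rpoC2 was at 1.06, 0.71 and 0.45 and -0.12, -0.32 and 0.86. Its Col-0 change at 10 h was -0.72 ± 0.28 (SE; adjusted p = 0.0385). rpoB, first in the operon, was at 0.00, -0.13 and -0.11 at 0 h, -0.03, 0.00 and 0.09 at 6 h and 0.61, -0.04 and 0.09 at 10 h in Col-0 and at 0.13, -0.04 and -0.17 and 0.11, 0.01 and 0.09 in the mutant. A single Col-0 10 h array was high, and the change of rpoB, 0.30 ± 0.14, did not pass (adjusted p = 0.0814). rpoC1 changed by -0.59 ± 0.26 (adjusted p = 0.0644, and 0.00969 without rps2 10 h replicate 3). RPOTMP, the nuclear gene for a phage-type polymerase found in plastids and mitochondria, fell by 0.33 at 10 h in Col-0 (SE 0.11; adjusted p = 0.0246). Of the 2 phage-type polymerase genes listed it is the one with a named probe set, and none of the 6 sigma factors, 11 polymerase-associated proteins and 5 ribonuclease or RNA-stability genes listed is among the named probe sets.

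Among the other genes, matK fell most. It encodes a splicing factor and lies inside the intron of a transfer RNA gene. Col-0 arrays were at 0.21, 0.00 and 0.03 at 0 h, -1.16, -1.23 and -1.37 at 6 h and -1.57, -1.34 and -1.88 at 10 h. Mutant arrays were at 0.63, 0.64 and 0.48 at 0 h and 0.24, -0.35 and 0.65 at 10 h. The fall was -1.33 ± 0.20 (SE; adjusted p = 8.54e-05) at 6 h and -1.67 ± 0.20 (SE; adjusted p = 8.47e-06) at 10 h. ycf4, an assembly factor of photosystem I, was at 0.18, -0.01 and 0.06, 0.00, -0.34 and -0.19 and -0.04, 0.23 and -0.10 at the 3 times in Col-0 and at 0.40, 0.32 and 0.28 and -0.03, -0.18 and 0.27 in the mutant. Its change at 10 h was -0.05 ± 0.13 (adjusted p = 0.768). ccsA, for heme attachment, clpP, for a protease subunit, and cemA, for an envelope protein, fell at 10 h by 0.72, 0.53 and 0.58. accD, for a subunit of the enzyme that starts fatty acid synthesis, and ycf3, another photosystem I assembly gene, stood at -0.35 ± 0.26 and -0.18 ± 0.27 and did not pass.

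**Figure D3:**
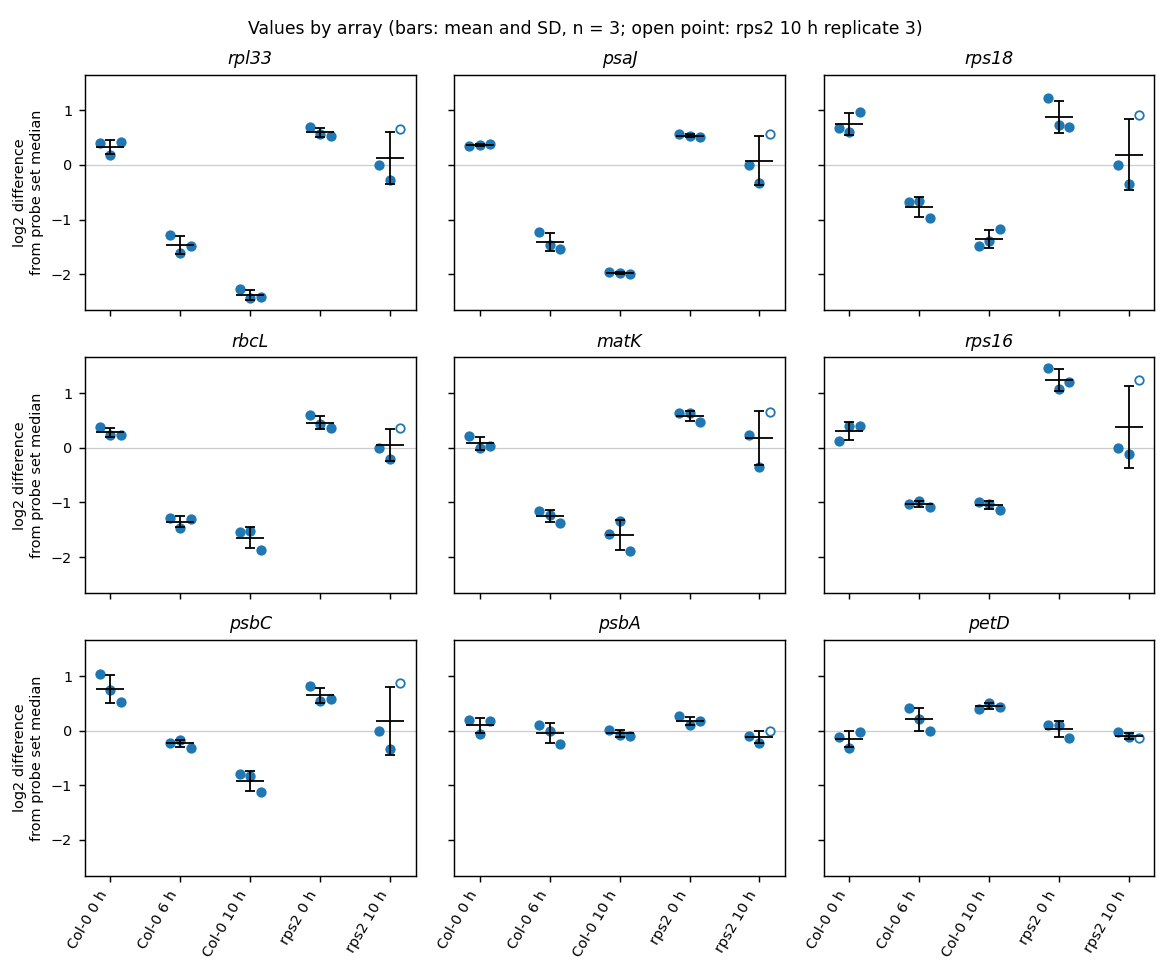
Values by array of 9 plastid-genome genes in the 5 groups, as log2 differences from the probe set median; bars are the mean and SD of 3 arrays and the open point is rps2 10 h replicate 3. rpl33, psaJ, rps18, rbcL, matK, rps16 and psbC are far lower in Col-0 at 6 and 10 h than at 0 h, psbA stays within 0.26 of 0, and petD is higher at 10 h in Col-0 on this scale but lower, by 0.48, on the poly-A scale.

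Between 6 and 10 h in Col-0, few members changed. Of the 69, 4 rose and 5 fell, or 13.0%, where 29.9% of all probe sets passed; the split was 0 up and 68 down on the poly-A scale, where 92.2% of all probe sets passed, and 1 up (petN) and 0 down after repeated quantile normalisation, where 9.05% passed. The genes that fell on the deposited scale were rpl33 (-0.91 ± 0.18), psbC (-0.68 ± 0.24), psaJ (-0.57 ± 0.17), psbZ (-0.51 ± 0.17) and psbF (-0.28 ± 0.08), and all but psbF had already fallen by 1 or more at 6 h. After quantile normalisation these 5 stood at -0.13 ± 0.27, -0.34 ± 0.35, 0.15 ± 0.28, -0.15 ± 0.17 and -0.17 ± 0.09. There psaJ turned direction and rpl33, psbC, psbZ and psbF shrank by over 1.5 times. That step narrows the Col-0 10 h arrays, whose standard deviations were 1.07 to 1.13, against 0.742 to 0.787 at 6 h. Smaller 10 h changes in Col-0 are thus in part built into it. Those that rose, on the deposited scale, were petN, psbB, psaC and ndhF (0.32 ± 0.08). psbK, psbT and rps18 had changes of 0.49 ± 0.29, 0.61 ± 0.26 and -0.59 ± 0.26 that did not pass with all arrays. Without rps2 10 h replicate 3, 8 rose and 15 fell, against 43.2% of all probe sets. Leaving out Col-0 6 h replicate 2 or Col-0 10 h replicate 3 brought the 9 members down to 5.

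The rps2 mutant gave no call at 10 h against 0 h with all arrays on the deposited scale and in the equally weighted fit. None of the 69 members passed, and 0.0% of all probe sets did; the smallest adjusted p of a member was 0.052. At an unadjusted p under 0.05 there were 28 members, and 38.4% of all probe sets. The members' median change was -0.32. Calls appeared with all arrays under other settings: 13 members fell after repeated quantile normalisation, against 29.6% of all probe sets passing, and 46 passed with array weights, against 51.1%. Quantile normalisation widens rps2 10 h replicates 1 and 2, whose standard deviations were 0.429 and 0.381, so larger changes there are in part built in. Without replicate 3, which leaves 2 arrays at 10 h, 47 members fell and none rose. That is 68.1% of members against 48.1% of all probe sets, or, for falls alone, against 26.9%. Their median was then -0.48, against -0.07 over all probe sets. On the poly-A scale without replicate 3, where the median of all probe sets was 0.24, the median over members was -0.16, with 12 fallen and 1 risen, against 36.0% of all probe sets passing.

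By function, the mutant without replicate 3 had 13 of 15 ribosomal genes fallen (median -0.71), 3 of 4 polymerase genes (-0.62), 14 of 20 photosystem genes (-0.39), 6 of 10 NDH genes (-0.41) and 3 of 12 genes of the cytochrome b6f complex and ATP synthase (-0.30). Of all probe sets 26.9% fell, so the count for the cytochrome b6f complex and ATP synthase is near the share over all. The lowest change was that of rps16, -1.30 ± 0.11 without replicate 3 and -0.87 ± 0.27 with it. psbK, ycf3, rps18 and psbI came next without it, at -1.19 ± 0.16, -1.13 ± 0.16, -1.06 ± 0.17 and -1.04 ± 0.12. ycf3 was at 1.23, 0.95 and 0.93 at 0 h and -0.03, -0.15 and 1.09 at 10 h in the mutant, and at -0.08, 0.25 and 0.18, -0.39, -0.40 and -0.35 and 0.00, 0.26 and -0.47 at 0, 6 and 10 h in Col-0. In the mutant the first 2 arrays of ycf3 at 10 h were below every 0 h array and the third was within their range, as in rps16. All 7 measured genes of the large ribosomal operon fell, by 0.64 in rpoA to 0.94 in rpl36. The genes that led in Col-0 fell less here: rpl33 by 0.74, psaJ by 0.70, matK by 0.64 and rbcL by 0.56. psbA, at -0.34 ± 0.11, fell in the mutant (adjusted p = 0.0191). At the high end, psbN, rps14 and rpoB stood at 0.19 ± 0.12, 0.10 ± 0.13 and 0.09 ± 0.15, none past the threshold.

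**Figure D4:**
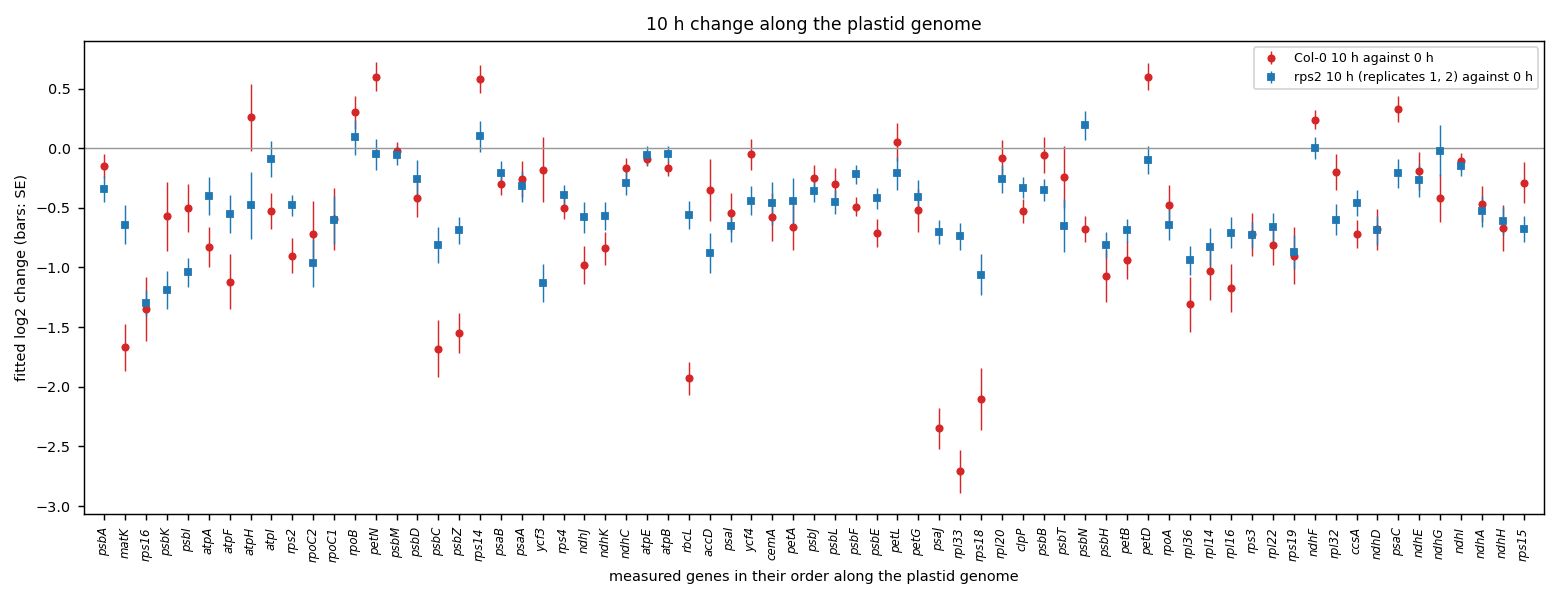
Fitted log2 change at 10 h against 0 h of the measured plastid genes in their order along the plastid genome, for Col-0 (circles) and for the rps2 mutant without replicate 3 (squares); bars are SE. Col-0 lies furthest below the mutant at rpl33, psaJ, rbcL, rps18, matK, psbC, psbN and psbZ and furthest above it at ycf3, atpH, petD, petN and psbK; the gap at atpH did not pass the direct test, and on the poly-A scale the fitted difference is below 0 at these genes as well.

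Whether the 10 h change differed between the genotypes was tested directly, as the Col-0 change less the mutant change. With all arrays 14 members were lower and 4 higher in Col-0 by this test, 26.1% of members against 44.5% of all probe sets, and the median difference was -0.23 against 0.06 over all. Without replicate 3 it was 12 lower and 9 higher, 30.4% against 51.8%, and the median was -0.04. The split was 4 lower and 2 higher after repeated quantile normalisation, with a median of 0.04, where 29.7% of all probe sets passed. On the poly-A scale 68 members were lower and none higher, with a median of -1.60, where 87.1% of all probe sets passed and their median was -1.31. For most members, then, the difference between genotypes in the 10 h change did not pass on the deposited scale, which does not show that they changed alike.

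The members with the largest differences were rpl33 (-2.23 ± 0.26 (SE; adjusted p = 1.34e-05)), psaJ (-1.89 ± 0.24 (SE; adjusted p = 2.44e-05)), rbcL (-1.52 ± 0.19 (SE; adjusted p = 2.93e-05)), rps18 (-1.40 ± 0.37 (SE; adjusted p = 0.00728)) and matK (-1.27 ± 0.29 (SE; adjusted p = 0.00266)). Without replicate 3 these stood at -1.97 ± 0.15, -1.64 ± 0.14, -1.37 ± 0.15, -1.04 ± 0.23 and -1.03 ± 0.22, all past the threshold. After quantile normalisation they stood at -1.32 ± 0.38, -0.95 ± 0.40, -0.80 ± 0.25, -0.56 ± 0.54 and -0.51 ± 0.50, and of these rpl33 and rbcL passed (adjusted p = 0.0215 and 0.0288). psbC, psbZ and psbN had differences of -1.22 ± 0.34, -1.10 ± 0.24 and -0.83 ± 0.15, and -0.88 ± 0.20, -0.86 ± 0.15 and -0.88 ± 0.16 without that array. atpF, the plastid gene rps2, psbF and rpl16 also passed both ways, at -0.87 ± 0.32, -0.64 ± 0.21, -0.35 ± 0.11 and -0.73 ± 0.28 with all arrays. After quantile normalisation psbZ and psbN still passed, at -0.70 ± 0.24 and -0.93 ± 0.25, and psbC, atpF, the plastid gene rps2, psbF and rpl16 did not. ndhJ and psbE passed with all arrays and not without replicate 3 (adjusted p = 0.0689 and 0.0568). petD, petN, rps14 and psaC differed the other way, at 0.72 ± 0.16, 0.67 ± 0.16, 0.48 ± 0.17 and 0.48 ± 0.16; on the poly-A scale they stood at -0.65, -0.70, -0.89 and -0.89, and after quantile normalisation petD and petN passed while rps14 and psaC did not. Without replicate 3, psbK, psbI, ycf3, ycf4 and rps15 also passed in this direction, which means a lower change in the mutant: 0.63 ± 0.21, 0.54 ± 0.16, 0.94 ± 0.22, 0.39 ± 0.16 and 0.39 ± 0.15. Their 0 h means, in that order, were 0.78, 0.68, 1.04, 0.33 and 0.50 in the mutant and 0.32, 0.32, 0.11, 0.08 and 0.13 in Col-0. At 10 h they were -0.41, -0.36, -0.09, -0.11 and -0.18 in the mutant without replicate 3 and -0.25, -0.18, -0.07, 0.03 and -0.15 in Col-0. Among these genes, ycf3 and ycf4 did not fall at 10 h in Col-0 with all arrays. atpH had the highest difference among those that did not pass with all arrays, 0.64 ± 0.39 (adjusted p = 0.215).

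At 0 h the mutant and Col-0 differed in few members. The mutant was higher in 3 and lower in 1, or 5.8% of members, against 15.9% of all probe sets, and the median difference was 0.08. The 3 higher were atpH (1.13 ± 0.28 (SE; adjusted p = 0.0139)), rps16 (0.94 ± 0.27 (SE; adjusted p = 0.0305)) and ycf3 (0.92 ± 0.27 (SE; adjusted p = 0.0356)). The lower one was psbN (-0.48 ± 0.11 (SE; adjusted p = 0.00918)). In atpH, rps16, ycf3 and psbN the 0 h values of the genotypes, given above, did not overlap. ndhG and psbD, at -0.50 ± 0.20 and -0.44 ± 0.16, did not pass with all arrays. Without rps2 10 h replicate 3 there were 10 higher and 2 lower, against 30.1% of all probe sets; the split was 0 and 2 on the poly-A scale, where 8.95% of all probe sets passed, and 3 and 0 after repeated quantile normalisation, where 10.5% did. The count of 4 fell to 2 without Col-0 0 h replicate 1, rps2 0 h replicate 2 or rps2 0 h replicate 3, and to 1 without Col-0 0 h replicate 2 or rps2 0 h replicate 1. The mutant 0 h arrays also enter the 10 h change of the mutant. For ycf3, rps16 and atpH that change thus starts from a higher 0 h value than in Col-0, and for psbN from a lower one. The 0 h difference of psbN, -0.48, is part of its difference in the direct test. psbK, psbI, ycf4 and rps15 also had higher 0 h means in the mutant, though these differences did not pass with all arrays.

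At 10 h the mutant was higher in 26 members and lower in 5. That is 44.9% of members against 55.0% of all probe sets, and the median difference was 0.31 against -0.05 over all. Without replicate 3 it was 24 higher and 9 lower, against 57.4% of all probe sets, with a median of 0.12. After repeated quantile normalisation it was 12 higher and 4 lower, against 44.1% of all probe sets, with a median of 0.09. On the poly-A scale all 69 were higher, against 90.2% of all probe sets passing, with a median of 1.52 where all probe sets had 1.15. Ribosomal genes made up 9 of the 26 higher, and none of the 4 polymerase genes passed. rpl33 differed by 2.50 ± 0.18 (SE; adjusted p = 1.32e-07), psaJ by 2.06 ± 0.17 (SE; adjusted p = 3.15e-07), matK by 1.77 ± 0.20 (SE; adjusted p = 7.24e-06) and rbcL by 1.70 ± 0.14 (SE; adjusted p = 3.03e-07). After quantile normalisation rpl33, psaJ and matK stood at 1.63, 1.15 and 1.05, rbcL was just above 1, and all 4 passed. In each of these 4, every mutant array at 10 h, replicate 3 or not, was above every Col-0 array at 10 h. rps16, at 1.42 ± 0.27, differed as well, although its Col-0 and mutant changes did not differ by the direct test (-0.48 ± 0.38, adjusted p = 0.338). The 5 lower in the mutant were petN (-0.68 ± 0.12), rps14 (-0.55 ± 0.12), petD (-0.54 ± 0.11), psaC (-0.36 ± 0.11) and ndhF (-0.24 ± 0.08), and on the poly-A scale all 5 were higher in the mutant. psaC and ndhF did not pass after quantile normalisation (adjusted p = 0.0586 and 0.128).

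The lists of nuclear genes for subunits of the same complexes hold 12 photosystem I, 11 photosystem II, 13 antenna and 9 NDH genes. Another list holds 7 genes of the cytochrome b6f complex, plastocyanin and ATP synthase. Only 11 of these genes are among the named probe sets, none of them for the cytochrome b6f complex, so most listed genes are not covered. All 11 fell at 10 h in Col-0, where 30.5% of all probe sets fell. Apart from ATPC2 they fell by 2.57 or more. The NDH subunit genes NDHL, NDHN and NDHS changed by -4.68 ± 0.17, -4.88 ± 0.15 and -5.28 ± 0.30, where the plastid NDH genes ranged from -0.98 to 0.24. The antenna genes LHCB4.1 and LHCB4.2 changed by -3.10 ± 0.14 and -6.90 ± 0.56. The photosystem I genes PSAE1 and PSAN changed by -2.83 ± 0.08 and -4.73 ± 0.29, and the photosystem II genes PSBW and PSBY by -2.57 ± 0.12 and -4.04 ± 0.21. ATPC1 and ATPC2, for the gamma subunit of the ATP synthase, changed by -3.14 ± 0.09 and -0.62 ± 0.08. Of the plastid subunits of these complexes, psaJ alone fell by over 2. In the mutant without replicate 3, 10 of the 11 nuclear genes fell, by 0.23 in PSAE1 to 2.81 in LHCB4.2, and ATPC2 stood at -0.18 ± 0.08. Of all probe sets 26.9% fell there. The difference of the 10 h change between the genotypes passed for all 11 nuclear genes with and without replicate 3, from -0.44 to -4.37 without it. Over all probe sets it passed in 44.5% with that array and in 51.8% without it. On the deposited scale without replicate 3, none of the 10 plastid NDH genes passed that test, with a median difference of 0.02. NDHL, NDHN and NDHS differed by -4.09, -4.37 and -3.89 there. With all arrays ndhJ passed, at -0.58. On the poly-A scale 68 of the 69 members passed that test, all lower in Col-0, where 87.1% of all probe sets passed.

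**Figure D5:**
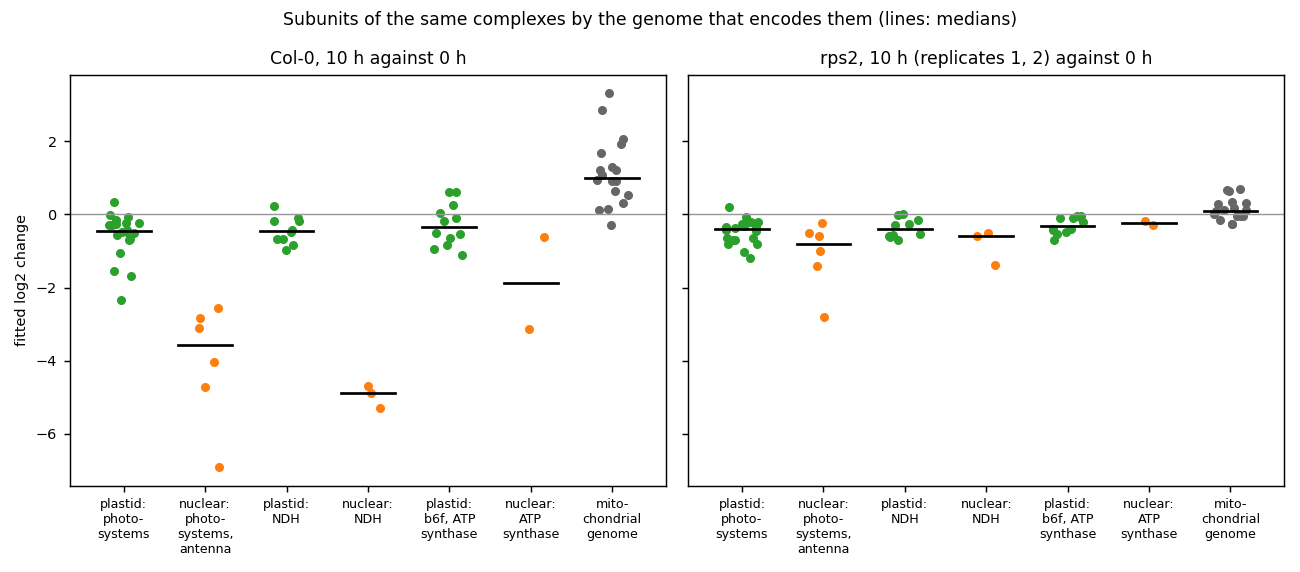
Fitted log2 change at 10 h against 0 h of subunits of the same complexes by the genome that encodes them, and of mitochondrial-genome probe sets, in Col-0 and in the rps2 mutant without replicate 3; points are probe sets and lines medians. Nuclear NDH subunits lie between -5.28 and -4.68 in Col-0 while plastid NDH subunits lie between -0.98 and 0.24, and mitochondrial probe sets have a median of 1.01 on this scale and -0.07 on the poly-A scale.

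The other organelle genome was higher at 10 h in Col-0 on the deposited scale. Of 18 mitochondrial-genome probe sets, for 11 genes, 14 rose at 10 h in Col-0 and none fell, where 6651 of all 22746 probe sets rose. Their median was 1.01, with a range of -0.30 to 3.31. On the poly-A scale 5 rose and 6 fell, with a median of -0.07, where 2397 of all probe sets rose and 18006 fell. At 6 h 2 of the 18 rose and none fell, where 5806 of all 22746 probe sets rose. In the mutant without replicate 3, 4 of the 18 rose and none fell, with a median of 0.10, where 4820 of all 22746 probe sets rose. The share that rose at 6 h was thus under that over all probe sets, and the share in the mutant was near it. Markers of other leaf cell types were few among the named probe sets. FMA and SPCH, regulators of the guard cell lineage, changed by -0.60 ± 0.10 and -0.13 ± 0.10 at 10 h in Col-0, and SWEET11, a sucrose transporter gene of the phloem, by -1.22 ± 0.11. Their part in the plastid results was not tested, and no listed epidermis or senescence marker is among the named probe sets.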

How the data were processed

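RNA from the 15 leaf samples was extracted with TRIzol, amplified and biotin-labelled with the MessageAmp Premier kit, per the labels' protocols. The deposited table holds log2 values made by the authors with RMA, per the submitters' processing notes; the version is not given in the sources used here. Each of its 22810 probe sets has a median of 0 over the 15 arrays (tolerance 1e-09), so the authors' values are centred and no filter on low values was possible. Precision is set by having 3 arrays a group. Left out were 64 control probe sets, and names came from the platform annotation and a TAIR10.1 gene table.

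Arrays were grouped by their labels. A 5-group linear model was fitted with limma 3.58.1 in R 4.3.3 (empirical Bayes, two-sided, Benjamini-Hochberg over 22746 probe sets, threshold 0.05). On simulated data at the Col-0 6 h comparison over 22746 probe sets, 47% of changes of 0.5 and 79% of changes of 1 were recovered, with 7 false calls of 22546. Each size was planted in 100 probe sets, with independent normal noise, whereas 54.1% of probe sets pass in the data. The adjusted threshold was therefore stricter in the simulation, and these rates do not describe the reported tests. Alternatives were other scalings, variance models, thresholds, a replicate block and leaving out each array. Members and lists were chosen with earlier results of these data known. Per-array values are given for the members with the highest and lowest 10 h change of each class and the 3 highest and 3 lowest of each comparison; other genes come from fixed lists of complexes, cell types and plastid expression factors. The labels do not say whether replicates came from separate plants, so p-values measure the spread between these samples. No sequence is printed, since no genome or sequence table was used.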

Additional observations from a re-analysis of the deposited data

Results flagged for a closer look

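The 10 h change differed between Col-0 and the rps2 mutant, by the interaction test, in 18 of the 69 members (26.1%, against 44.5% of all probe sets). Among them, rpl33, psaJ and rbcL fell further in Col-0, with differences of -2.23, -1.89 and -1.52 (Col-0 change less mutant change; 3 arrays a group). petD and petN differed in the other direction, at 0.72 and 0.67 on the deposited scale, and at -0.65 and -0.70 on the scale centred on poly-A controls. Without rps2 10 h replicate 3 the interaction passed in 21 members, and rpl33, psaJ, rbcL, petD and petN stood at -1.97, -1.64, -1.37, 0.69 and 0.64. After repeated quantile normalisation it passed in 6 members, against 29.7% of all probe sets. rpl33 and rbcL then stood at -1.32 and -0.80 and petD and petN at 0.62 and 0.51, all past the threshold, and psaJ, at -0.95, did not pass (adjusted p = 0.0998).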

How the results depend on the processing

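Counts of members past the threshold, with the reported value first, changed as follows. Col-0 6 h against 0 h (44): 26 after repeated quantile normalisation, 29 at an adjusted p under 0.01 and 9 with a change of at least 1 required. Col-0 10 h against 0 h (46): 28 after quantile normalisation and 13 at a change of at least 1. Col-0 10 h against 6 h (9): 20 in a fit of only the groups compared, 21 with array weights, 1 after quantile normalisation, 68 on the poly-A scale and 69 on it without rps2 10 h replicate 3, 23 with a replicate block and without that array, 3 at 0.01 and 0 at a change of at least 1; leaving out single arrays gave 5 to 23. The rps2 mutant at 10 h against 0 h (0): 4 with trended and robust variance, 46 with array weights, where rps2 10 h replicate 3 has a weight of 0.0573, 13 after quantile normalisation, 13 on the poly-A scale without that array, 51 with the block and without it, and 0 to 47 over single arrays left out. Genotypes at 0 h (4): 17 with only the groups compared, 14 with weights, 2 on the poly-A scale, 14 with the block and without replicate 3, 1 at 0.01, 1 at a change of at least 1, and 1 to 12 over single arrays. Genotypes at 10 h (31): 18 with only the groups compared, 16 after quantile normalisation, 69 on the poly-A scale with and without replicate 3, and 8 at a change of at least 1. Interaction (18): 6 after quantile normalisation, 68 on the poly-A scale with and without replicate 3, 9 at 0.01, 7 at a change of at least 1, and 11, without rps2 0 h replicate 2, to 25 over single arrays. Stricter thresholds give fewer by construction, and the shifts after quantile normalisation are in part built in, as described below. The cause of the other shifts was not tested. The share of all probe sets that passed also moved, so a count alone does not set the members apart. For Col-0 10 h against 6 h that share was 29.9% as reported, 92.2% with poly-A centring and 43.2% without the doubtful array. For genotypes at 0 h it was 15.9%, 8.95% and 30.1% in that order. For the mutant at 10 h it was 0.0% as reported and 51.1% with array weights. Shares for fits with the block or with only the groups compared are not given here.

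Median changes over members moved on the poly-A scale to -1.59 (Col-0 10 h against 0 h), -1.21 (10 h against 6 h), -0.03, and -0.16 without replicate 3 (mutant at 10 h), -0.08 (genotypes at 0 h), 1.52 and 1.35 (genotypes at 10 h) and -1.60 and -1.43 (interaction). For the mutant at 10 h, the median was -0.45 with array weights, -0.48 after quantile normalisation, -0.55 with the block and without replicate 3, and -0.48 to -0.19 over single arrays left out. The genotype difference at 10 h was 0.14 with weights, 0.09 after quantile normalisation, 0.09 with the block and without replicate 3, and 0.12 to 0.41 over single arrays. The interaction was -0.05 with weights, 0.04 after quantile normalisation, -0.02 with the block and without replicate 3, and -0.35 to -0.04 over single arrays.

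Single genes that reversed did so on the poly-A scale, apart from 2 after quantile normalisation, psaJ at 10 h against 6 h in Col-0 (0.15) and rpl14 between genotypes at 10 h (-0.03). On the poly-A scale, at 10 h against 0 h in Col-0 these were atpH (-0.81), ndhF (-0.84), petD (-0.48), psaC (-0.75), rpoB (-0.78), rps14 (-0.49) and petN (-0.48). At 10 h against 6 h they were petN (-0.41), psbB (-0.64), psaC (-0.68), ndhF (-0.79), psbK (-0.63) and psbT (-0.51). Between genotypes at 10 h they were petD (0.67, and 0.72 without replicate 3), petN (0.52 and 0.57), rps14 (0.65 and 0.67), psaC (0.84 and 0.81) and ndhF (0.96 and 0.97). In the interaction they were petD (-0.65 and -0.70), petN (-0.70 and -0.75), rps14 (-0.89 and -0.91), psaC (-0.89 and -0.86) and, without replicate 3, atpH (-0.65). Quantile normalisation sets all arrays to 1 distribution, where the standard deviation over all probe sets was 1.07 to 1.13 on the deposited Col-0 10 h arrays and 0.381 and 0.429 on rps2 10 h replicates 1 and 2. It therefore narrows the former and widens the latter, so smaller Col-0 10 h changes and larger mutant 10 h changes are in part built in.

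Same-numbered arrays did not deviate together (median r of -0.00729, range -0.173 to 0.0797). This shows no array-wide deviation shared by number, but it cannot tell whether same-numbered samples were grown or handled together. The replicate block alone gave 40, 45, 7, 0, 3, 30 and 14 calls in the order above and changed no median. Averaging the probe sets of 1 gene changes nothing here, since each gene has 1.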
